A study of Homo sapiens with 29 samples.

Results

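The last sampled step of a cardiac differentiation course, day 8 against day 6, was examined in 4 arms of the human embryonic stem cell line HuES6. Samples were chosen by their day alone: the 4 arrays of day 8 and the 4 arrays of day 6, paired by arm, which are 8 of 29 arrays in the series. Of 20046 genes with a probe, 11477 were tested, those whose probe reached a detection p under 0.01 on at least 3 of the 8 arrays. The FBW arm was induced with FGF2, BMP4 and a WNT activator (CHIR00921 in the labels), the BW arm was induced without FGF2, the FB arm without the WNT activator and the FW arm without BMP4. Doses given for day 0 are 10 ng/ml FGF2, 1 ng/ml BMP4 and 1 uM activator. Shared by all arms were IWP-2 (2 uM, given on days 2 and 3), which blocks WNT secretion, insulin on day 0 with its withdrawal from day 1, growth on Matrigel and a defined medium with neither serum nor albumin.

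Each arm had 1 array on each day, so the 4 arms serve as the pairs and the spread is their departure from a common change, treatment differences included. It is not the variation between repeat differentiations. Between 16812 and 18479 of 47323 probes were detected on day 8 and between 16218 and 18796 on day 6, a difference with p = 0.875 in an exact two-sided sign-flip test of 4 pairs, which cannot reach 0.05 at this size. The FBW array of day 6 is described as also belonging to another series. On it 47 genes stood at least 2-fold above both day 5 and day 8 of FBW, whereas the day 6 arrays of BW, FB and FW had 4, 3 and 2 such genes. Against their own neighbouring days, the FBW arrays of days 2, 3, 4 and 5 had 126, 60, 43 and 7. The BW array of day 2 had 96. At least 2-fold below both neighbouring days were 2 genes on the FBW array of day 6. On the day 2 arrays of FBW and BW there were 33 and 29 such genes. Whether the count of 47 belongs to that array or to the arm was not tested. Counts of calls in the gene lists are also given without FBW.

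During heart development, cardiac progenitors driven by transcription factors such as NKX2-5 assemble sarcomeres, build ion channels and calcium stores, and shift their fuel toward fatty acids. Proliferation slows as contractile genes come on. WNT and BMP signals are needed at first to form mesoderm, and WNT signalling must then be held down for cardiac fate. Bulk arrays average over all cells of a well, so fewer cells of a type and less RNA per cell cannot be told apart in any value below. Values are normalised log2 signals, and a change is day 8 minus day 6, so 1 unit is 2-fold.

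Single sarcomere and energy genes, the cardiac factor NKX2-5 and the WNT enhancer RSPO3 were among the genes that rose in all 4 arms. Alkaline phosphatase, FGF receptors and the secreted WNT antagonist FRZB were among those that fell. In the paired fit (limma, arm as a block, Benjamini-Hochberg adjusted p of 0.05) 126 of 11477 genes were called, 1.10%. Higher on day 8 were 74 (0.645%) and lower were 52 (0.453%). Counts of calls over the 4 arms in the gene lists below stand beside these shares. The median change of the rises was 0.82 and of the falls -0.80, with -0.003 over all genes tested. At least 2-fold were 19 of the rises and 13 of the falls. All 126 had the same sign in the 4 arms, which held for 3182 of all genes tested.

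The number of calls depended on which arms entered. Without FBW the fit called 772 genes (6.73%), 396 higher (3.45%) and 376 lower (3.28%), and all 126 genes were among them. Only 502 of the 772 had the same sign in FBW, so a call without FBW need not hold for FBW. Without FB the fit called 0 (1563 genes had an unadjusted p under 0.05), without BW 2 and without FW 1. The sign of all 126 was the same in each of these fits. It could not have differed, since each of the 126 had the same sign in every arm. Quantile normalisation without background correction ended the call of 19 of the 40 calls singled out by rule, NKX2-5, CACNA1C, CKMT2, ACSL1, BUB1, TIMP3, WNT5B, FGF2 and FGFR4 among them, and moved the change of 17 of the 40 by over 1.5 times. It gave TIMP3 0.64, HSPB8 0.73, MTUS2 0.54, GPC5 0.46 and RSPO3 0.91. The authors' processed values ended 8, CACNA1C, CKMT2, HSPB8, RDH10, ZSCAN10, WNT5B and FGF2 among them. They moved 5 by over 1.5 times, to 2.46 for CACNA1C, 2.42 for MTUS2, 1.83 for GPC5, -2.22 for VENTX and -1.67 for FGFR4. Levels differ between arms, and day groups of 22 of the 126 did not overlap, against 212 of all genes tested (1.85%).

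PGM5, a phosphoglucomutase relative found at adhesion sites of muscle cells, had the largest called rise. Its signal was 10.71, 10.30, 9.03 and 9.27 on day 8 in FBW, BW, FB and FW, against 9.00, 8.68, 7.30 and 6.73 on day 6, a mean change of 1.90 ± 0.16 (SE, adjusted p = 0.0117, limma). Its lowest day 8 value, in FB, just exceeded the highest day 6 value, in FBW, so the days did not overlap. FHOD3, a formin of cardiac sarcomeres, had 9.41, 8.12, 7.75 and 7.51 on day 8 in FBW, BW, FB and FW, against 8.12, 7.15, 6.54 and 6.50 on day 6. It rose by 1.12 ± 0.11, and the 4 arm changes lay between 0.97 and 1.29. ALPK2, an alpha kinase expressed in heart, rose by 1.31 ± 0.13 and HSPB8, a small heat shock chaperone of striated muscle, by 1.44 ± 0.14. The other 3 of the 12 largest rises outside the groups below were MTUS2, a microtubule-associated protein, with 1.27, PPIC, a cyclophilin, with 1.23, and GPC5, a glypican of the cell surface, with 1.18. MTUS2 and GPC5 were above background on 2 of the 4 arrays of day 6, so the size of their change depends on the background correction.

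Of 26 contraction genes tested, 1 was called: MYL7, the atrial myosin light chain. It had 13.77, 12.77, 7.62 and 6.45 on day 8 in FBW, BW, FB and FW, against 13.13, 12.09, 6.91 and 5.47 on day 6, and rose by 0.75 ± 0.09 (adjusted p = 0.0227, limma). The levels of FBW and BW were far above those of FB and FW on both days, while the changes, between 0.64 and 0.97, were alike in size. Positive mean changes were seen for 21 of the 26 genes and the median was 0.53, but it was 0.86 in FBW, 0.65 in BW, 0.002 in FB and 0.08 in FW. Without FBW 3 were called higher, MYL7, TPM1 and SMYD1, beside 3.45% of all genes tested. MYL3, a ventricular light chain, had 12.21, 10.32, 5.60 and 5.11 on day 8 in FBW, BW, FB and FW, against 9.85, 8.61, 5.69 and 4.51 on day 6, and was not called (adjusted p = 0.154). Other sarcomere partners outside the list were called higher: TRIM55, a titin-binding ligase, with 0.95 ± 0.15, and NEXN, a Z-disc actin binder, with 0.71 ± 0.12.

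The promoter of MYL7 is shown because it holds motifs of cardiac factors. It is the 250 bases before the RefSeq start (GRCh38.p14, chr7:44141333-44141582, minus strand), with a CArG box and GATAAG in capitals, 61 and 41 bases before the start at their 5′ ends.
MYL7: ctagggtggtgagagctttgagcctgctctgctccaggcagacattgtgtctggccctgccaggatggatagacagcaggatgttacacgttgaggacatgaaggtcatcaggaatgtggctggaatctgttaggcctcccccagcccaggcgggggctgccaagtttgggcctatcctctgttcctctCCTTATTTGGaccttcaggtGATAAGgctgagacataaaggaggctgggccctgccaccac
A CArG box (CC, 6 bases of A or T, then GG) is the letters serum response factor is known to bind, and GATAAG is a form of the site of GATA factors. Both strands of such windows were searched. CArG boxes stood in 5 of 17 contraction genes with a window (29.4%), in 2 of 57 called rises (3.5%) and in 0 of 37 called falls, and in 158 of 9344 tested genes (1.7%). GATAAG was in 2 of the 17, in 6 of the 57 rises (10.5%), in 5 of the 37 falls (13.5%) and in 5.4% of tested genes. The TEAD core CATTCC was in 6 of the 17 (35.3%), in 11 of the 57 rises (19.3%), in 2 of the 37 falls (5.4%) and in 13.2% of tested genes. A match describes the letters and is not evidence of binding.

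NKX2-5, the homeodomain factor of cardiac progenitors, was the 1 called gene among 23 cardiac regulators tested. It had 12.10, 10.82, 7.41 and 7.28 on day 8 in FBW, BW, FB and FW, against 10.92, 10.36, 6.16 and 6.08 on day 6. The change was 1.02 ± 0.14 (adjusted p = 0.0307, limma), more than 1 unit in FBW, FB and FW and 0.46 in BW. Median change over the 23 was 0.16, with 15 positive. Without FBW 2 were called higher, NKX2-5 and HAND1, and PDGFRA lower, beside calls for 6.73% of all genes tested. ISL1, a factor of early progenitors, changed by -1.30 in FBW and by -0.02, -0.05 and 0.26 in BW, FB and FW. PDGFRA, a receptor of cardiac mesoderm, had negative changes in all 4 arms with a mean of -0.74 and was not called over the 4 arms (adjusted p = 0.0688).

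**Figure D1:**
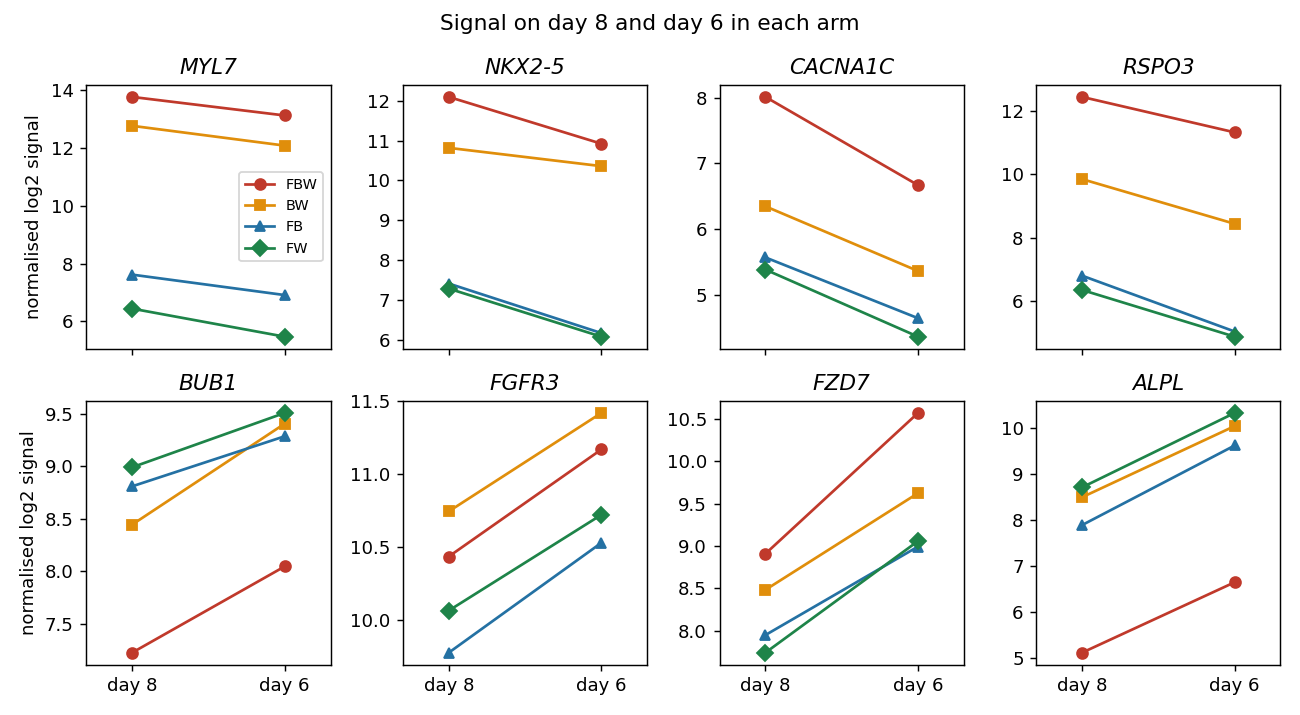
Normalised log2 signal (y axis) of 8 called genes on day 8 (left) and day 6 (right), 1 line per arm. MYL7, NKX2-5, CACNA1C and RSPO3 were higher on day 8 in all 4 arms, and BUB1, FGFR3, FZD7 and ALPL lower, on levels that differ between arms.

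Calcium and conduction genes had mostly positive mean changes, with 2 calls. CACNA1C, the pore subunit of the L-type calcium channel, had 8.01, 6.35, 5.57 and 5.39 on day 8 in FBW, BW, FB and FW, against 6.67, 5.36, 4.65 and 4.36 on day 6, and rose by 1.07 ± 0.12 (adjusted p = 0.0214, limma). It was detected on all 4 arrays of day 8 and on 2 of day 6. GJA1, the main gap junction protein of ventricle and also high in stem cells, had 8.02, 10.72, 11.47 and 11.41 on day 8 in FBW, BW, FB and FW, against 9.13, 11.49, 11.85 and 12.32 on day 6. It fell by 0.79, and its lowest level was in FBW. Of the 19 calcium and conduction genes tested these were the 2 calls, 18 had a positive mean change and the median was 0.40. Without FBW 5 of the 19 were called, beside 6.73% of all genes tested, RYR2, SLN, CACNA1C and POPDC2 higher and GJA1 lower. JPH1, a junctophilin that ties surface membrane to the calcium store, was called outside the list with 0.83 ± 0.12.

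The largest mean change of that list was not a call over the 4 arms. SLN, which encodes the calcium pump inhibitor sarcolipin, had 7.60, 7.74, 7.61 and 7.26 on day 8 in FBW, BW, FB and FW, against 7.26, 6.10, 5.90 and 4.98 on day 6. The lowest day 8 value, in FW, and the highest day 6 value, in FBW, were equal to 2 decimals. Its change averaged 1.49 with an adjusted p of 0.0607 (limma), and it was called higher without FBW with 1.88.

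Energy supply genes had 3 calls among 24 tested, all rises, beside rises called for 0.645% of all genes tested. CKMT2, the mitochondrial creatine kinase of muscle, had 8.96, 7.39, 5.96 and 5.89 on day 8 in FBW, BW, FB and FW, against 7.42, 6.36, 5.46 and 4.77 on day 6, a rise of 1.05 ± 0.17. ACSL1, which activates long-chain fatty acids, rose by 1.03 ± 0.15 and ACADVL, the first enzyme of their oxidation, by 0.54 ± 0.08. Mean changes were positive for 22 of 24, with a median of 0.42 that was 0.66 in FBW, 0.55 in BW, 0.05 in FB and 0.12 in FW. Without FBW 4 were called higher and 1, CKB, lower, beside calls for 6.73% of all genes tested. Further fuel genes outside the list were called higher, among them ETFB, which carries electrons from fatty acid oxidation, at 0.67, MPC1, a subunit of the mitochondrial pyruvate carrier, at 0.56, and NNT, the mitochondrial transhydrogenase, at 0.68. FABP5, a fatty acid binding protein also outside the list, was called lower at -0.56. Of 25 oxidative phosphorylation genes 0 were called, 24 had a positive mean change and the median was 0.18, while that of FBW alone was 0.46. Glycolysis and hypoxia genes had 0 calls among 30, a median of 0.13, and medians of 0.48 in FBW, 0.09 in BW, -0.06 in FB and -0.05 in FW. Without FBW both lists again had 0 calls, and the glycolysis median was -0.05.

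**Figure D2:**
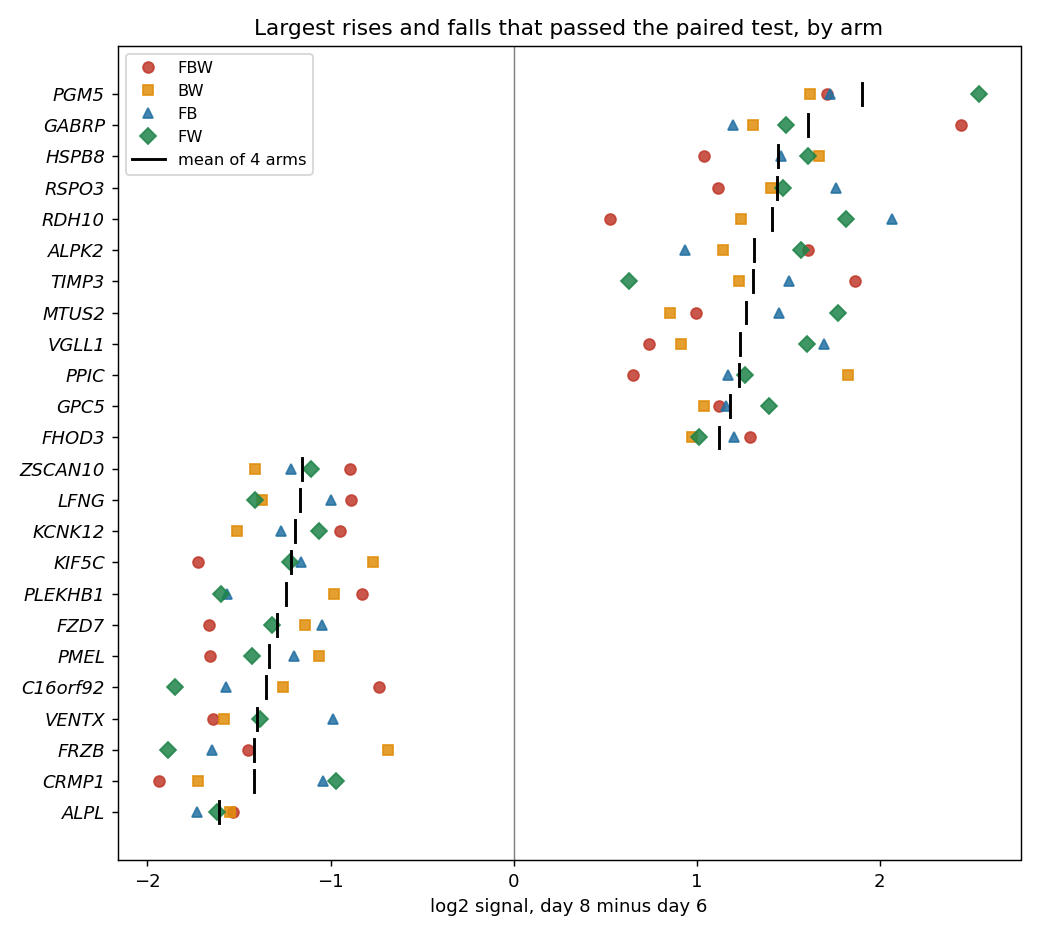
Log2 change, day 8 minus day 6 (x axis), of the 12 largest called rises and the 12 largest called falls, 1 symbol per arm and a bar at the mean. Each gene has its 4 arms on 1 side of 0, with PGM5 at 1.90 on top and ALPL at -1.61 at the bottom.

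Secreted signals and their receptors were also among the calls. RSPO3, a secreted enhancer of WNT signalling, had 12.43, 9.84, 6.80 and 6.35 on day 8 in FBW, BW, FB and FW, against 11.32, 8.43, 5.04 and 4.88 on day 6, and rose by 1.44 ± 0.12 (adjusted p = 0.0117, limma). FBW held the highest level on both days, and in FB and FW it was above background on day 8 and not on day 6. WNT5B, a ligand linked to non-canonical signalling, rose by 0.99 ± 0.17. FZD7, a WNT receptor prominent in stem cells, had 8.91, 8.48, 7.95 and 7.74 on day 8 in FBW, BW, FB and FW, against 10.57, 9.62, 8.99 and 9.06 on day 6. It fell by 1.29 ± 0.12, with all day 8 values below all day 6 values, but another detected probe of FZD7 changed by -0.02. FRZB, a secreted WNT antagonist, fell by 1.42 ± 0.19. The 25 WNT genes tested thus had 2 rises and 2 falls, 12 positive and 13 negative changes and a median of -0.004. Without FBW 5 were called higher, AXIN2, APCDD1, WNT5A, WNT5B and RSPO3, and 4 lower, beside calls for 6.73% of all genes tested. AXIN2, a common readout of canonical WNT activity, had a mean change of 0.46 that was not called over the 4 arms (adjusted p = 0.132).

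FGF signalling genes had 3 calls among 21 tested, all falls, beside falls called for 0.453% of all genes tested. FGFR3, a receptor, had 10.43, 10.74, 9.78 and 10.06 on day 8 in FBW, BW, FB and FW, against 11.17, 11.42, 10.53 and 10.72 on day 6, a fall of 0.70 ± 0.07 (adjusted p = 0.0117, limma). The 4 arm changes lay between -0.75 and -0.66. FGF2, the ligand added to 3 of the arms on day 0, had 5.20, 5.95, 6.97 and 7.27 on day 8 in FBW, BW, FB and FW, against 5.91, 6.57, 7.67 and 7.93 on day 6, and fell by 0.67 ± 0.10. FGFR4 fell by 0.85 ± 0.12 and was above background on 1 array of day 8 and on all 4 of day 6. The response genes SPRY1, SPRY2, ETV5 and DUSP6 were not called, and the list median was -0.01. Without FBW SPRY2 was called higher, and FGFR1 lower along with the 3 falls, beside calls for 6.73% of all genes tested. Among other signals, TGFBI, a matrix protein induced by TGF-beta, rose by 0.95 ± 0.11, BMPR2, a BMP receptor, by 0.73, and PDGFC, a growth factor, by 0.90. RDH10, which makes retinal for retinoic acid synthesis, rose by 1.41 ± 0.24, and its arm changes ran between 0.53 in FBW and 2.07 in FB. TGFBI was the 1 call among 22 TGF-beta response genes and RDH10 the 1 among 14 retinoic acid genes. BMP response genes had 0 calls among 23. Without FBW these lists had 4, 5 and 1 calls, beside 6.73% of all genes tested.

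Several genes of undifferentiated and early embryonic cells fell. ALPL, the alkaline phosphatase that marks pluripotent cells, had 5.11, 8.50, 7.89 and 8.71 on day 8 in FBW, BW, FB and FW, against 6.65, 10.05, 9.62 and 10.33 on day 6, a fall of 1.61 ± 0.09 (adjusted p = 0.00274, limma) and the smallest adjusted p of the fit. ZSCAN10, a zinc-finger factor of stem cells, had 4.52, 7.17, 7.24 and 7.77 on day 8 in FBW, BW, FB and FW, against 5.42, 8.58, 8.45 and 8.88 on day 6, and fell by 1.16 ± 0.12. FBW was lowest for both genes on both days. VENTX, a homeobox factor, fell by 1.40 ± 0.14 and was detected on 2 arrays of day 8 and 4 of day 6. PRDM1, a transcriptional repressor, and SALL1, a zinc-finger factor, fell by 0.92 and 0.88 but were not high in undifferentiated cells: PRDM1 was at 4.88 on day 0 and SALL1 at 5.62, beside means of 7.25 and 5.81 on day 8. Genes best known from neurons or pigment cells were also among the 12 largest falls: CRMP1, a growth cone protein, with -1.42, KIF5C, a neuronal kinesin, with -1.22, KCNK12, a potassium channel subunit, with -1.20, and PMEL, the fibril protein of melanosomes, with -1.34. PLEKHB1 (-1.24) and C16orf92 (-1.35) were also among them.

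The pluripotency list itself had 0 calls among 18 genes (limma), 15 negative mean changes, 10 of them negative in all 4 arms, and a median of -0.55. SOX2 had 4.23, 9.21, 8.93 and 9.24 on day 8 in FBW, BW, FB and FW, against 4.38, 10.08, 10.36 and 10.63 on day 6 (change -0.96, adjusted p = 0.0774). SOX2 was not above background in FBW on either day and was above it in the other 3 arms. Without FBW, 8 of the 18 were called lower, beside 3.28% of all genes tested, among them SOX2, POU5F1, LIN28A and DNMT3B. LIN28A had changes of -1.36, -0.53, -0.53 and -0.58 in FBW, BW, FB and FW, so FBW was the arm with the largest change there.

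Cell cycle genes had negative changes whose size differed between arms. All 31 mitosis genes had negative mean changes, 24 were lower in all 4 arms, and the median was -0.64. By arm it was -1.30 in FBW, -0.79 in BW, -0.27 in FB and -0.14 in FW. The 1 call was BUB1, a kinase of the spindle checkpoint, with 7.23, 8.44, 8.81 and 8.99 on day 8 in FBW, BW, FB and FW, against 8.05, 9.40, 9.28 and 9.51 on day 6 (change -0.69 ± 0.11, adjusted p = 0.0434, limma). TOP2A, the topoisomerase of dividing cells, had 8.70, 10.57, 11.05 and 11.14 on day 8, against 10.25, 11.45, 11.17 and 11.18 on day 6 in the same arms, and was not called (adjusted p = 0.194). The change of TOP2A was -1.55 in FBW and -0.87 in BW, beside -0.12 and -0.05 in FB and FW. CCNB2, a mitotic cyclin, had changes of -1.70, -0.69, -0.20 and -0.07 in FBW, BW, FB and FW. Replication genes had 0 calls among 29, 28 negative mean changes and a median of -0.48. Without FBW 7 replication and 5 mitosis genes were called lower, beside 3.28% of all genes tested, with a mitosis median of -0.42. Outside these lists, PRIM1, a primase subunit, fell by 0.73, STIL, a centriole factor, by 0.75, and UBE2T, a ubiquitin conjugase of DNA repair, by 0.57. CDKN1A, the p21 cell cycle inhibitor, had a mean change of 1.06 that was not called over the 4 arms (adjusted p = 0.0739), and its list had 0 calls among 24. Without FBW 4 of the 24 were called higher, CDKN1A, TP53I3, PHLDA3 and TP53INP1, beside 3.45% of all genes tested.

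Promoters of the called mitosis gene BUB1 and of TOP2A and CCNB2 are shown since mitosis promoters share the box CCAAT, bound by the factor NF-Y. Each is the 250 bases before the RefSeq start (GRCh38.p14): BUB1 at chr2:110678064-110678313 on the minus strand, TOP2A at chr17:40417897-40418146 on the minus strand and CCNB2 at chr15:59104896-59105145 on the plus strand. Capitals mark CCAAT on either strand.
BUB1: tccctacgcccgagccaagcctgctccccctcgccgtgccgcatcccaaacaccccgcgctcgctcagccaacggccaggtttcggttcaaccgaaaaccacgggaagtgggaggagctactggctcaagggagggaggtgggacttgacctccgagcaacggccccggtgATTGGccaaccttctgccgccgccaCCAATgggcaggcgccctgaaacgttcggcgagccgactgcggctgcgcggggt
TOP2A: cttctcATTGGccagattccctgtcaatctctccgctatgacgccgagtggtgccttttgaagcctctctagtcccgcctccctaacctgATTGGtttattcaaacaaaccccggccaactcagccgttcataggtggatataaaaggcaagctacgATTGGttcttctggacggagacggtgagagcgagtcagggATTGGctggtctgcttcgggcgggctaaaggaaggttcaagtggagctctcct
CCNB2: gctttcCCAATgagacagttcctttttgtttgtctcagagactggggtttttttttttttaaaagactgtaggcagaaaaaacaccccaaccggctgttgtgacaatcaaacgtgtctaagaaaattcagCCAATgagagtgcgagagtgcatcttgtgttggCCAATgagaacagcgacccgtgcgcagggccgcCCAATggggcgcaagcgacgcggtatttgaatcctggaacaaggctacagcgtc
BUB1 held 2 boxes, and TOP2A and CCNB2 held 4 each. The box nearest the start lay 54 bases before it in BUB1 and CCNB2 and 53 in TOP2A, counted to the 5′ end of the match. A CCAAT on either strand was found in 22 of 25 mitosis genes with a window (88.0%), in 16 of 37 called falls (43.2%), in 16 of 57 called rises (28.1%), in 4 of 17 contraction genes and in 42.3% of 9344 tested genes. Called falls as a whole thus held the box about as often as tested genes did.

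**Figure D3:**
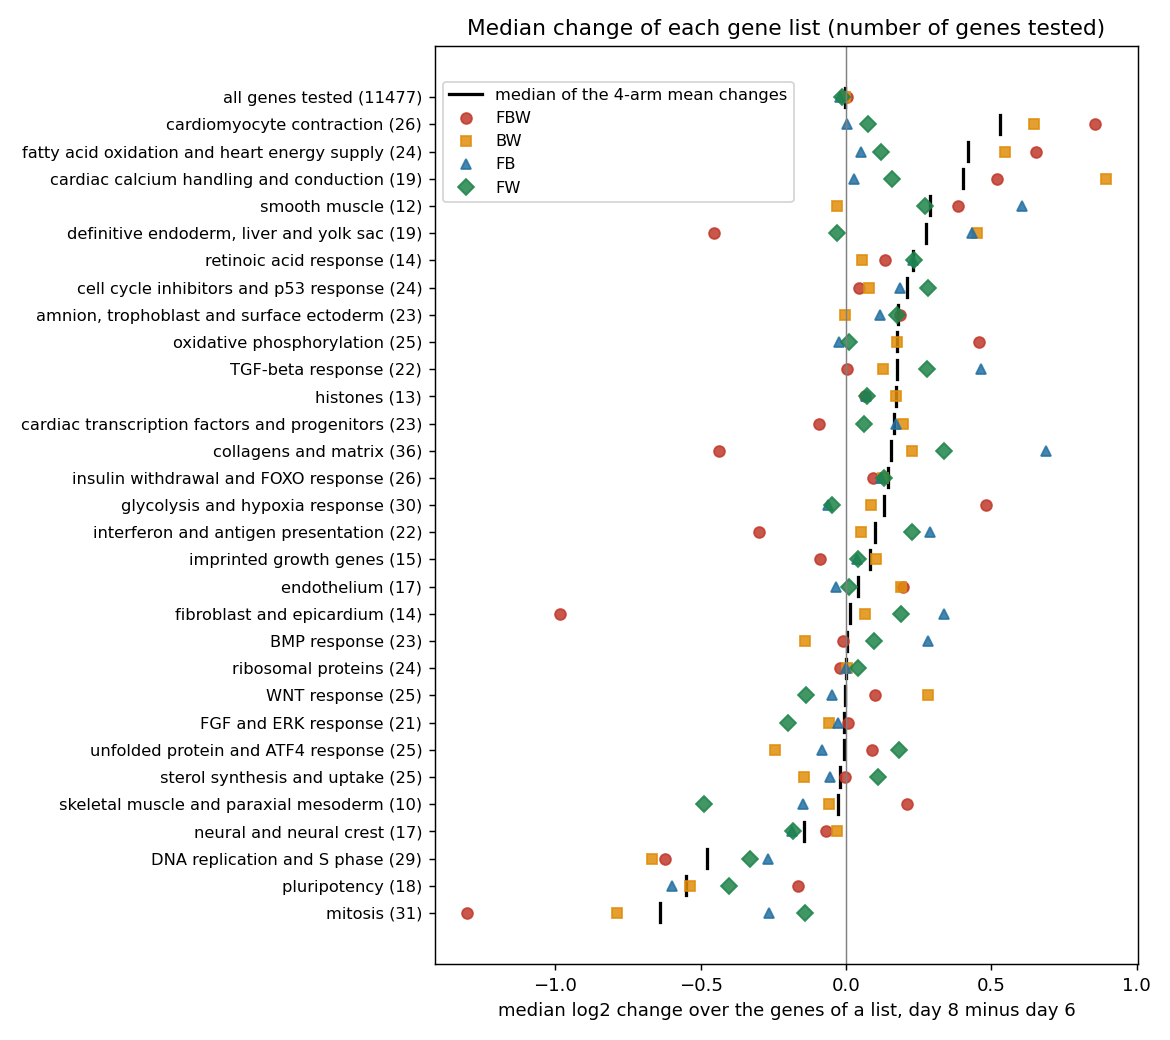
Median log2 change over the genes of a list, day 8 minus day 6 (x axis), for lists with at least 10 tested genes, 1 symbol per arm and a bar at the median of the mean changes. Mitosis is lowest at -0.64 and contraction highest at 0.53, and in both FBW lies farther from 0 than FB and FW.

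Collagens and matrix genes had changes of opposite sign in different arms. Among 36 tested, 2 were called. TIMP3, an inhibitor of matrix proteases, rose by 1.31 ± 0.20 (adjusted p = 0.0382, limma), and FBLN2, a fibulin of developing heart valves, fell by 0.74 ± 0.10. COL3A1, a fibrillar collagen, had 11.27, 10.19, 11.13 and 10.38 on day 8 in FBW, BW, FB and FW, against 13.00, 9.32, 6.92 and 6.08 on day 6. The 4 arms lay close together on day 8 and far apart on day 6, when FBW was highest. DCN, the proteoglycan decorin, had 5.90, 7.29, 9.13 and 8.78 on day 8 in FBW, BW, FB and FW, against 8.70, 5.68, 6.01 and 5.51 on day 6. Medians of the list were -0.44 in FBW, 0.23 in BW, 0.69 in FB and 0.34 in FW. Without FBW, 14 of the 36 were called higher, beside 3.45% of all genes tested, and 2 lower. Smooth muscle genes had 0 calls among 12, led by ACTA2 with 1.06 (adjusted p = 0.0898), which was called without FBW.

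By their normalised signals 19 genes were at least 2-fold lower in FBW and at least 2-fold higher in both FB and FW, and the reverse held for 2, VCAM1 and LRRN3. With signals not above background set at the lowest detected signal of their array, 16 of the 19 reached 2-fold in all 3 arms (not NR2F1, PRPH and TMEM119), and of the 2 only LRRN3. The 19 included the collagens COL1A1, COL3A1 and COL5A2, the proteoglycans DCN and LUM, the factors NR2F1, HOXB5 and MSX1, and IGF2 with its imprinted neighbour H19. IGF2 had 6.24, 5.58, 6.95 and 6.34 on day 8 in FBW, BW, FB and FW, against 7.88, 5.68, 5.18 and 4.81 on day 6. On the FBW array of day 6, 7 of the 19 stood at least 2-fold above both day 5 and day 8 of that arm. Whether these 7 belong to that array or to the arm was not tested. With 1 array a side these are values with no test.

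FB and FW, the arms that lacked the WNT activator or BMP4, had the highest correlation of the 6 arm pairs. Across 11477 genes their changes correlated at r = 0.70 (Spearman's rho = 0.57), and 149 genes moved at least 2-fold the same way in both with 0 moving oppositely. FBW with BW gave r = 0.344 with 97 genes the same way and 11 oppositely. FBW with FB gave 0.07 with 22 and 25, and FBW with FW gave 0.076 with 27 and 30. BW with FB gave 0.375 with 52 and 3, and BW with FW gave 0.363 with 49 and 4. By this measure BW was thus no closer to FBW than to FB or FW. The 2 arms of a pair share no array, but pairs with an arm in common share its arrays and are not separate comparisons. Genes are not independent of each other, and all arms passed through the same normalisation. By normalised signals, and counting a gene detected on at least 1 of an arm's 2 arrays, 233 genes were at least 2-fold higher (2.00%) and 331 lower (2.85%) in FBW, and in BW 156 (1.31%) and 128 (1.08%). In FB the counts were 165 (1.53%) and 81 (0.751%), and in FW 182 (1.65%) and 111 (1.01%).

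**Figure D4:**
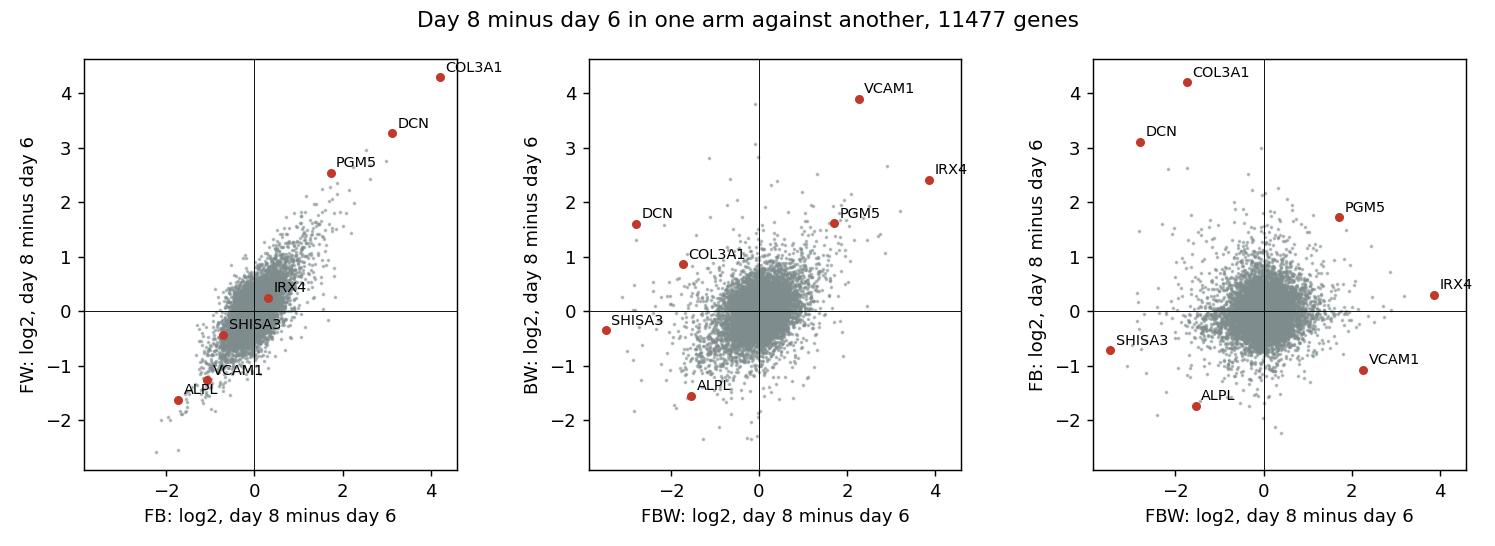
Log2 change, day 8 minus day 6, of each tested gene in 1 arm against another: FB and FW (left), FBW and BW (middle), FBW and FB (right), with 7 genes named. The cloud follows the diagonal for FB and FW (r = 0.70) and has no clear slope for FBW and FB (r = 0.07), where COL3A1 and DCN lie at the upper left.

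The single largest changes of an arm named different genes. IRX4, a ventricular transcription factor, led FBW, with 9.75, 8.10, 5.98 and 5.47 on day 8 in FBW, BW, FB and FW, against 5.88, 5.68, 5.67 and 5.22 on day 6. Changes of 3.87 in FBW and 2.42 in BW stood beside 0.30 and 0.25 in FB and FW. AHNAK2, a scaffold protein, followed in FBW with 3.19. SHISA3, known from the frog as an antagonist of WNT and FGF receptors, had the largest decline of FBW at -3.48, with 5.24 on day 8, against 8.72 on day 6, and 5.59 on day 5. Its mean over the 4 arms was 7.57 on day 5 and 6.48 on day 6, so FBW lay below that mean on day 5. CTNNA2, a neuronal catenin, had -3.11 and TMSB15A, a thymosin, -2.99 in FBW. In BW, VCAM1, an adhesion protein, came first, and CGA, the alpha chain of chorionic gonadotropin, was at 8.50 on day 8 and not above background on day 6 in BW, at least 12.2-fold higher. MX1, an interferon-induced antiviral protein, was 4.31, 7.59, 6.29 and 6.71 on day 8 in FBW, BW, FB and FW, and not above background in FBW on day 8 or on any array of day 6. It was at least 6.48-fold higher in BW. NPAS1, a neuronal transcription factor, was the largest decline in FB at -2.24 and in FW at -2.57. Liver and yolk sac genes had changes of both signs: AFP changed by -1.13 in FBW and by 2.81, 1.35 and 0.63 in BW, FB and FW, and FOXA3, an endoderm factor, was the 1 call of that list with a fall of 0.81.

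A fit of the difference between arm types asked whether FBW and BW, which received BMP4 and WNT activator together, changed otherwise than FB and FW. It called 14 of 11477 genes (0.122%), 13 with a higher change in FBW and BW and 1, NPPB, with a lower one. Only 5 of the 14 were detected on all 8 arrays: ENTREP1, FBN2, TSPAN7, UBE2L6 and NPPB. NPPA, LAMA4, MEGF10 and A2M were above background in FBW and BW alone and passed the filter through those arms, so their calls are given as values and support nothing about FB and FW. VCAM1 had 12.21 and 10.92 on day 8 in FBW and BW, against 9.95 and 7.01 on day 6, and 4.95 and 4.79 on day 8 in FB and FW, against 6.01 and 6.05 on day 6. The difference in change was 4.25 ± 0.47 (SE, adjusted p = 0.0318, limma), and on day 8 VCAM1 was above background in FBW and BW only. NPPA, the atrial natriuretic peptide, had 7.64 and 7.87 on day 8 in FBW and BW, against 5.54 and 5.73 on day 6, and in FB and FW it was never above background on these days. NPPB, the B-type natriuretic peptide, ran the other way, with 5.77 and 6.83 on day 8 in FBW and BW, against 6.45 and 8.02 on day 6, and 9.97 and 7.46 on day 8 in FB and FW, against 7.96 and 5.89 on day 6. Its difference was -2.73 ± 0.26.

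Basement membrane and muscle scaffold genes were among the other 11. LAMA4, the laminin alpha chain of vessel and muscle basement membrane, had changes of 2.90 and 2.67 in FBW and BW, and of 0.03 and 0.09 in FB and FW, where it was not above background. SORBS2, a Z-disc adaptor, had changes of 1.98 and 1.68 in FBW and BW, and of -0.16 and -0.61 in FB and FW. In FB and FW it was not above background on day 8, at least 1.07-fold and 1.10-fold lower than on day 6. FBN2, a fibrillin of embryonic microfibrils, had changes of 0.99 and 1.06 in FBW and BW and of -0.80 and -1.04 in FB and FW. MEGF10, a receptor of muscle progenitors, differed by 2.19, TCEA3, an elongation factor, by 2.14 and A2M, a protease inhibitor, by 2.10. HESX1, a forebrain and pituitary factor, was called for lower values on day 8 in FB and FW, and it was not above background in FBW on either day. Its changes were 0.25 and -0.26 in FBW and BW, and -2.12 and -1.99 in FB and FW. COL3A1, at -4.69, missed the threshold (adjusted p = 0.0659). With 2 arms a side and 2 residual degrees of freedom the fit is thin, and with the authors' processed values it called 0 genes (1400 with an unadjusted p under 0.05).

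**Figure D5:**
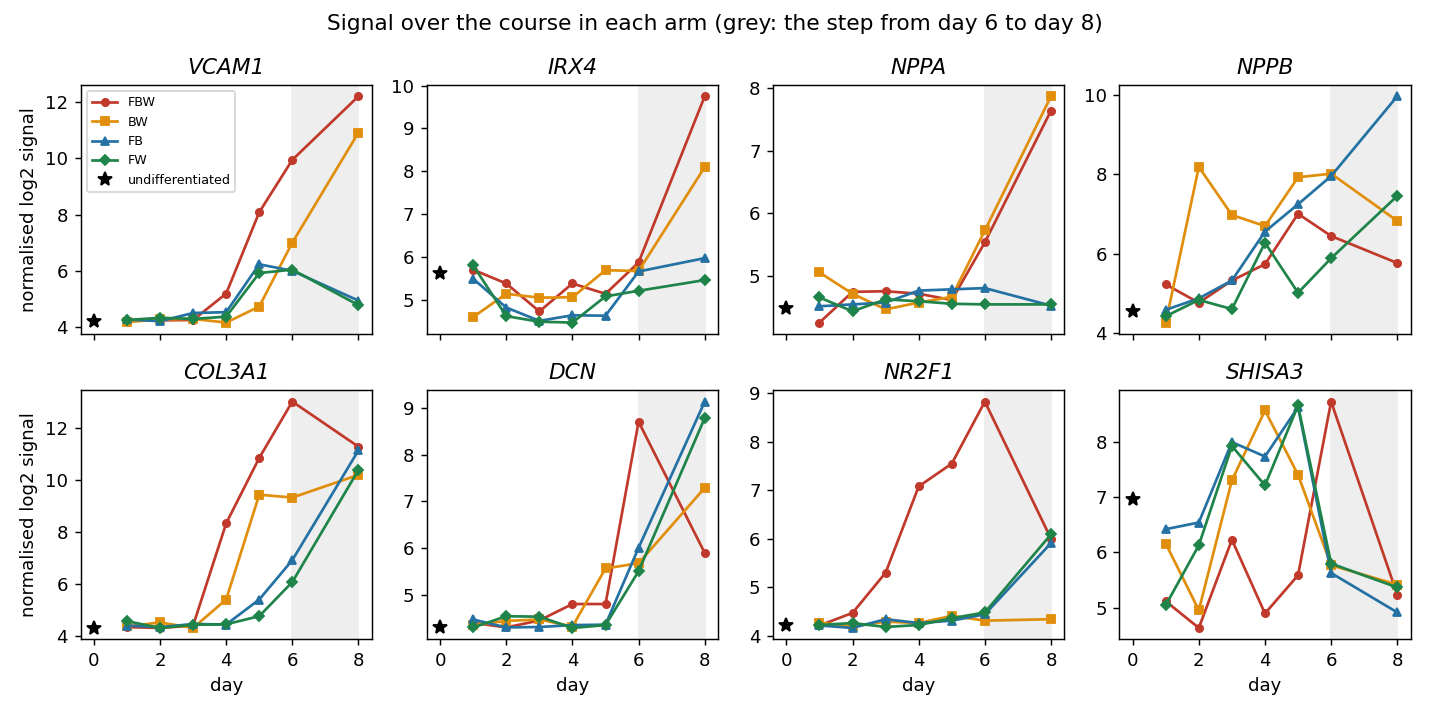
Normalised log2 signal (y axis) of 8 genes by day (x axis) in the 4 arms, with a star for undifferentiated cells and the last step shaded. VCAM1, IRX4 and NPPA climb in FBW and BW over the last step. COL3A1 and DCN climb most in FB and FW, less in BW, and decline in FBW. In FBW, SHISA3 is higher on day 6 than on days 5 and 8.

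The called genes were followed in a step that shares no array with days 6 and 8. From the mean of the 4 arms, 60 of the 74 rises were also higher on day 5 than on day 4 (81.1%, against 47.6% of all genes tested). Of the 52 falls, 34 were also lower on day 5 than on day 4 (65.4%, against 52.1%). Undifferentiated cells lay below the day 5 mean for 56 of the 74 rises and above it for 32 of the 52 falls (61.5%). Over all genes tested, 5913 lay below it and 5560 above it (48.4%).

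Markers of other lineages gave few calls. GABRP, a GABA receptor subunit used as a marker of amnion and surface ectoderm, had 8.64, 11.18, 12.41 and 11.95 on day 8 in FBW, BW, FB and FW, against 6.20, 9.87, 11.22 and 10.46 on day 6. It rose by 1.61 ± 0.19 (adjusted p = 0.0240, limma), its highest levels were in FB and FW, and it was the 1 call among 23 genes of its list. Without FBW 5 of the 23 were called higher, GABRP, TFAP2B, VTCN1, HAND1 and XAGE2, and TFAP2C and DLX5 lower. VGLL1, a TEAD cofactor of trophoblast, was called outside that list with a rise of 1.24. LFNG, a Notch modifier of somites, fell by 1.17 and was the 1 call among 10 paraxial and skeletal muscle genes. IGFBP7, a secreted IGF-binding protein, rose by 1.07 ± 0.15 and was the 1 call among 26 insulin and FOXO response genes. The 17 endothelial, 17 neural, 14 fibroblast, 5 HOX and 22 interferon genes tested gave 0 calls each, as did 25 unfolded protein response, 25 sterol, 24 ribosomal protein, 15 imprinted, 13 histone, 7 metallothionein and 5 blood genes. Without FBW several of these lists had calls: 3 neural genes were higher and 5 lower, 5 fibroblast genes higher and 2 lower, 3 interferon genes higher and 1 lower, and 1 unfolded protein response gene higher and 3 lower. The endoderm list then had 5 higher, AFP and 3 fibrinogen chains among them, and 2 lower, the paraxial list 3 lower, and the FOXO list 2 higher and 1 lower. Imprinted and blood genes had 2 calls each, endothelial, HOX, sterol, histone and ribosomal protein genes 1 each, and metallothioneins 0. The counts without FBW in this paragraph stand beside calls for 6.73% of all genes tested. What part such cells had in the changes above was not tested. Of 30 calls with a second detected probe, RHOQ alone had one of opposite sign, and 5 more, FZD7 and TGM2 among them, had one of less than 50% of the size.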

How the data were processed

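Total RNA of HuES6 cells was hybridised to Illumina bead arrays, 1 array per arm and day. The deposited raw table gives an intensity per probe on a linear scale with a detection p-value, made by the authors in GenomeStudio per the submitters' processing notes, which give no version. The authors' deposited processed table holds intensity values down to -13, with a median of 6.88 in the column of undifferentiated cells. No source used here states how that table was normalised. It served as an alternative only.

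All 29 arrays were corrected and quantile normalised to log2 with neqc (limma 3.58.1, R 4.3.3, offset 16, negative controls inferred from detection p). The platform annotation names 1 gene for 30113 probes, more than 1 for 8 and leaves 17202 unnamed here; gene IDs updated the symbols of 30074. A gene was its probe with the highest mean over 29 arrays. Tests used lmFit and eBayes with a trend, arm as a block (3 residual degrees of freedom), over 11477 genes. They were tried on simulated data with equal changes in all arms and independent noise. That setting does not cover arms whose changes differ, as they do here. Named genes are the 12 largest called rises and falls, the calls of each list (or its 2 largest changes), the 6 largest arm-type differences each way and the 3 largest changes of each arm; further genes were chosen after their values were seen. "At least" folds set a signal not above background at the lowest detected signal of its array. The genes, lists and tests were chosen with earlier results of these data known. Promoters are from RefSeq, GRCh38.p14; of 11477 tested genes 9344 had one. The number of arrays limits the precision.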

Additional observations from a re-analysis of the deposited data

Results flagged for a closer look

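Changes of 103 genes were examined for an arm far from the other 3, and 7 were found. Chance gives about 1 in 20 for genes not chosen by their changes, but these were so chosen, and that rate does not apply. CGA, SHISA3 and TMSB15A were named for a large change in 1 arm, which made their flags likely from the start. CGA changed by 3.81 in BW, SHISA3 by -3.48 and TMSB15A by -2.99 in FBW, and PGM5 by 2.54 in FW, each the largest of its 4 arms. NKX2-5 in BW (0.46), FGFR4 in FBW (-0.61) and RPS23, a ribosomal protein, in FBW (-0.04) had the smallest change of their 4 arms.

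The change over this step differed between arms given BMP4 and WNT activator together (FBW and BW) and arms lacking 1 of them (FB and FW) for 14 genes by the fitted difference. On the log2 scale the differences were 4.25 for VCAM1, 2.75 for LRRN3, 2.73 for LAMA4, 2.48 for ENTREP1, 2.26 for NPPA, 2.21 for SORBS2 and 2.19 for MEGF10. They were 2.14 for TCEA3, 2.10 for A2M, 2.05 for HESX1, 1.94 for FBN2, 1.94 for TSPAN7 and 1.45 for UBE2L6, and -2.73 for NPPB. MEGF10, NPPA, A2M and LAMA4 were above background in FBW and BW alone, and 5 of the 14 were detected on all 8 arrays.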

How the results depend on the processing

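The 126 calls of day 8 against day 6 became 45 with quantile normalisation alone, 81 with the authors' values, 57 with no filter on detection, 201 for genes detected on all 4 arrays of a day, 54 without a trend and 860 with array weights. Without the replicate block, day as the single term called 0 genes (302 with an unadjusted p under 0.05 in limma), and additive fits over 28 and 16 arrays called 8 and 14. Leaving out 1 arm at a time gave between 0 and 772 calls. Other settings gave between 97 and 150, and all 126 genes that were tested under a setting kept their sign in it. A sign could have changed only where the normalisation or the probes differed, since each gene had the same sign in every arm. The 14 arm-type calls became 30 with quantile normalisation alone, 0 with the authors' values (1400 with an unadjusted p under 0.05, smallest adjusted p 0.0568 in limma), 3 among genes detected on all 8 arrays and 1 without a trend. Counts of genes past 2-fold in FBW, BW, FB and FW were 564, 284, 246 and 293. They were 58, 21, 14 and 18 at 4-fold, and 175, 76, 60 and 82 at 2-fold with quantile normalisation alone. The cause was not tested. Of 40 named calls 21 remained with quantile normalisation alone, 32 with the authors' values, 40 with median scaling, 40 without FBW, 0 without FB, 1 without BW and 1 without FW. None of them reversed, and with an arm left out none could.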
